A study of Homo sapiens with 6 samples.

Results

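The Krüppel-like factors (KLFs) considered here were KLF2, KLF3, KLF4, KLF5, KLF6, KLF7, KLF9, KLF10, KLF11 and KLF13, chosen by gene symbol, and all 10 were found among the 58656 gene rows of the table. Their RNA was sequenced in cells of MDA-MB-231, a long-established human line derived from triple-negative breast cancer. Of the 6 libraries, 3 came from cells given mitocurcumin, a derivative of the plant polyphenol curcumin directed to mitochondria, at 5 µM for 9 hours. The other 3 came from cells given the DMSO vehicle for the same 9 hours, so both groups shared the cell line and its growth conditions and differed in the labels only by the compound. Replicates are named biological in the labels, which do not say whether the cultures were separate, so the p-values measure only the spread between these samples, which may be technical.

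KLFs are transcription factors that bind GC-rich and CACCC-containing DNA through 3 zinc fingers at the end of the protein. The fingers are alike across the family, while the rest of each protein differs and recruits different partners: some members mainly activate genes and bind histone acetyltransferases, others repress through the Sin3 complex, and others repress through CtBP. Several KLF genes are known as early-response genes whose RNA moves quickly with serum, stress, hormones or growth factors, and in breast epithelium the family is studied for its parts in proliferation, differentiation and invasion.

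Mitocurcumin was followed by a change in the RNA of 8 of the 10 members. KLF4, KLF13, KLF9, KLF11, KLF3 and KLF6 rose, KLF2 and KLF10 fell, and KLF5 and KLF7 did not pass the test. The call required an adjusted p under 0.05 in the quasi-likelihood test of edgeR, with the Benjamini-Hochberg method applied over all 16481 genes tested, all 10 members among them. By that rule 32.5% of the genes tested were called, 14.7% as higher and 17.8% as lower. The members were chosen with earlier results of these data known, and the family was not tested as a set. For 8 members no mitocurcumin value lay within the vehicle range or the reverse, and 44.9% of the genes tested were free of overlap in this way. Among genes at a mean level of at least 20 CPM (counts scaled to library size), a background chosen after the data were seen and one that fits every member but KLF2, 47.7% were called and 20.7% were higher. The median log2 fold change, mitocurcumin over vehicle, was 0.305 over the members and -0.00587 over all genes tested. The sizes were small, since KLF2 was the 1 member both called and past 2-fold, as were 3.45% of the genes tested. In a bulk RNA sample, fewer cells that express a gene and less of its RNA per cell cannot be told apart.

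**Figure D1:**
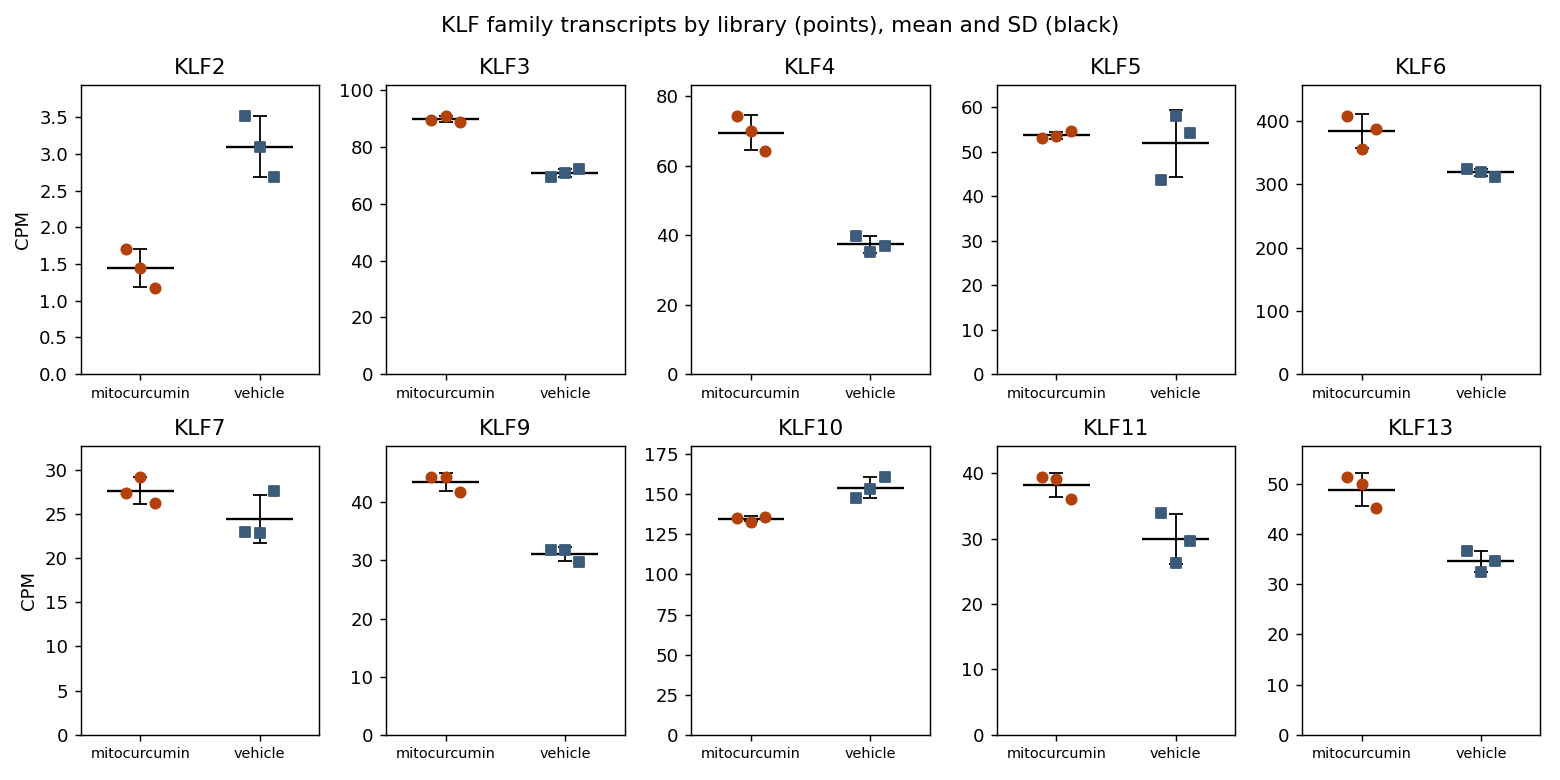
CPM of the 10 KLF members in each library, mitocurcumin on the left and vehicle on the right of each panel, with points for the 3 replicates and the group mean with its SD. The mitocurcumin points lay above the vehicle points for KLF3, KLF4, KLF6, KLF9, KLF11 and KLF13 and below them for KLF2 and KLF10, and the groups overlapped for KLF5 and KLF7.

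**Figure D2:**
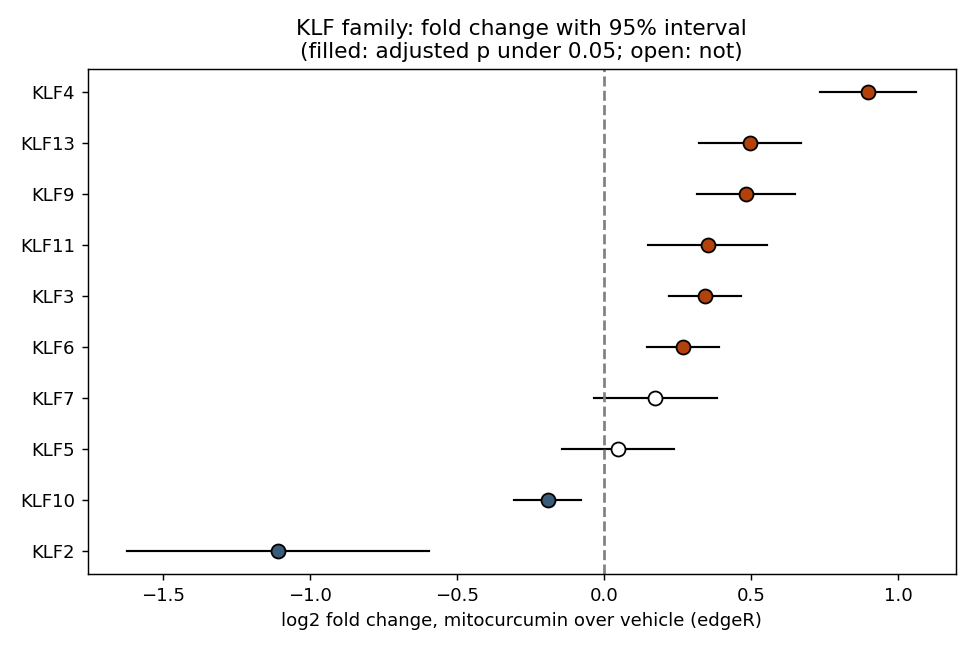
Log2 fold change of each member, mitocurcumin over vehicle, as edgeR fitted it, with its 95% interval, filled where the adjusted p was under 0.05. KLF4 lay highest at 0.90 and KLF2 lowest at -1.11, and the intervals of KLF5 and KLF7 included 0.

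The activator group moved in both directions: of its 5 members 2 rose, 1 fell and 2 did not pass the test. KLF4, a factor known for its use in reprogramming cells to pluripotency and for its part in epithelial differentiation, lies on the minus strand at chr9:107484852-107489769 (GRCh38). Its values were 74.3, 69.9 and 64.3 CPM in the mitocurcumin libraries and 39.8, 35.1 and 37.0 CPM in the vehicle libraries. Even the lowest mitocurcumin library stood far above the highest vehicle library. The means were 69.5 ± 4.98 CPM and 37.3 ± 2.35 CPM (SD, n = 3 each). The log2 fold change was 0.90 ± 0.08 (SE), a 1.86-fold rise, with an edgeR adjusted p of 1.73e-07. This placed KLF4 at rank 245 by p among all genes tested.

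The 250 bases upstream of the KLF4 start, on the gene's strand at chr9:107489770-107490019, are shown because this was the member with the largest rise. The sequence is RefSeq's, on GRCh38.p14. Capitals mark the GC box, GGGCGG or its complement CCGCCC, and the E-box, CACGTG.
KLF4: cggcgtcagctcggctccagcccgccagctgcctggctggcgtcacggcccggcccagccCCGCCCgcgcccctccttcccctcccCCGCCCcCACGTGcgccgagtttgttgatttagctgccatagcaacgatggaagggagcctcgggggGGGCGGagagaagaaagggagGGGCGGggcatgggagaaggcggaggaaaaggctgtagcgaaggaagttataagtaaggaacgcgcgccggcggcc

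This window held 4 GC boxes, at positions -190, -164, -97 and -76 from the start, and 1 E-box at -157, 1 base from the nearest GC box. Of all 35116 promoter windows of this length, 42.6% held a GC box and 6.34% an E-box on either strand. GC made up 69.2% of the KLF4 window, against a median of 58.0% over all windows. Such matches describe the letters and do not show binding.

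KLF2, known for its part in the quiescence of endothelial cells and T cells, moved the other way. The gene lies on the plus strand at chr19:16324826-16328685. It was the scarcest member, at 1.70, 1.45 and 1.18 CPM in the mitocurcumin libraries and 3.52, 3.09 and 2.69 CPM in the vehicle libraries. These values rest on 42, 34 and 34 counts after mitocurcumin and 83, 80 and 63 counts after vehicle, so KLF2 had the fewest counts behind it of any member. Every mitocurcumin library was below every vehicle library. The log2 fold change was -1.11 ± 0.24 (SE, 95% interval -1.62 to -0.60), 0.464 of the vehicle level, with an edgeR adjusted p of 0.00197. Endothelial markers summed to 9.24 to 11.1 CPM after mitocurcumin and 17.9 to 19.9 after vehicle. PECAM1 and KDR, the 2 of 5 tested, were both lower. CDH5 and VWF were near 0, and TEK averaged 0.244 CPM after mitocurcumin and 0.304 after vehicle. The part of these markers in the KLF2 value was not tested.

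KLF2's upstream window, at chr19:16324576-16324825 on the plus strand and again from RefSeq on GRCh38.p14, is shown for its MEF2 element, since MEF2 factors are known activators of KLF2. Capitals mark the match to the element, CTA and TAG with any 4 bases between them.
KLF2: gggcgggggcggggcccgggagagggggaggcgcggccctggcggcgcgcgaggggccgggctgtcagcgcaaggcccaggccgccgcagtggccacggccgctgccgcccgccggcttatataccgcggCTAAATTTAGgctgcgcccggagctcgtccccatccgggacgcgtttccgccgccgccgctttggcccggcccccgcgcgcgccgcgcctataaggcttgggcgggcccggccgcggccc

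The match lay at -120 from the start, and 2.36% of all windows held a match to this pattern. KLF2's window also held 4 GC boxes, left in lower case, and GC made up 80.0% of it, more than in the window of any other member matched.

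KLF6, a widely expressed factor studied as a tumour suppressor, lies on the minus strand at chr10:3775996-3785209. Its values were 408, 355 and 388 CPM after mitocurcumin and 324, 320 and 312 CPM after vehicle. The lowest mitocurcumin library, replicate 2, was still above the highest vehicle library. KLF6 rose by a log2 fold change of 0.27 ± 0.06 (SE), with an edgeR adjusted p of 0.00178. On the deposited log2 values the limma adjusted p was 0.0583, which missed the threshold (5.12e-05 to 0.0583 over all 17 alternatives).

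KLF5 and KLF7 did not pass the test. KLF5, a factor that promotes proliferation of epithelial cells and is studied in basal breast cancer, lies on the plus strand at chr13:73054976-73077538. It had 53.0, 53.5 and 54.5 CPM in the mitocurcumin libraries and 43.5, 58.0 and 54.2 CPM in the vehicle libraries. The mitocurcumin values were close together and fell inside the vehicle range, where replicate 1 was the low one. The log2 fold change was 0.05 ± 0.09 (SE, 95% interval -0.14 to 0.24), with an edgeR adjusted p of 0.731, and it was -0.06 without vehicle replicate 1.

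KLF7, known from the development of neurons, lies on the minus strand at chr2:207074137-207167246. Its values were 27.4, 29.2 and 26.2 CPM after mitocurcumin and 22.9, 22.8 and 27.6 CPM after vehicle. Vehicle replicate 3 exceeded 2 of the mitocurcumin libraries. The log2 fold change was 0.18 ± 0.10 (SE, 95% interval -0.04 to 0.39), with an edgeR adjusted p of 0.200.

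Of the 4 members that bind Sin3, KLF9, KLF11 and KLF13 rose and KLF10 fell. KLF13, known for its action on the chemokine gene CCL5 in T cells, lies on the plus strand at chr15:31326835-31435665. It had 51.4, 49.9 and 45.1 CPM after mitocurcumin and 36.6, 32.5 and 34.6 CPM after vehicle, with no overlap. The log2 fold change was 0.50 ± 0.08 (SE), with an edgeR adjusted p of 1.73e-04. KLF9, a factor induced by glucocorticoids and thyroid hormone in many cells, lies on the minus strand at chr9:70384604-70414657. Its values were 44.3, 44.4 and 41.7 CPM after mitocurcumin and 31.8, 31.8 and 29.8 CPM after vehicle. The spread within each group was small beside the gap between them. KLF9 rose by a log2 fold change of 0.48 ± 0.08 (SE), with an edgeR adjusted p of 1.61e-04.

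KLF10 and KLF11 are both known as genes induced early by TGF-beta, and their changes had opposite signs. KLF11, on the plus strand at chr2:10043550-10054836, had 39.5, 39.1 and 36.1 CPM after mitocurcumin and 33.9, 26.3 and 29.7 CPM after vehicle. Its vehicle libraries were the more spread, and the groups did not overlap. The log2 fold change was 0.35 ± 0.10 (SE), with an edgeR adjusted p of 0.00907, while limma on the deposited log2 values gave an adjusted p of 0.0691 (8.71e-05 to 0.0691 over the alternatives). KLF10, on the minus strand at chr8:102648784-102655725, had 135, 133 and 136 CPM after mitocurcumin and 148, 153 and 161 CPM after vehicle. The mitocurcumin libraries lay within a few CPM of each other, below every vehicle library. KLF10 fell by 0.19 ± 0.05 (SE) on the log2 scale, with an edgeR adjusted p of 0.0116.

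The KLF10 call was the least stable of the 8. Its edgeR adjusted p was 0.0547 without mitocurcumin replicate 1, 0.0721 without mitocurcumin replicate 2 and 0.0756 without vehicle replicate 3 (0.000906 to 0.0756 over the alternatives), and its sign was the same in each.

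KLF3, which represses by binding CtBP, lies on the plus strand at chr4:38664199-38701517. It had 89.7, 91.0 and 88.9 CPM after mitocurcumin and 69.4, 70.9 and 72.3 CPM after vehicle. The replicates were within a few CPM of each other and the groups lay far apart. KLF3 rose by a log2 fold change of 0.34 ± 0.06 (SE), with an edgeR adjusted p of 2.19e-04. An antisense gene, KLF3-AS1, overlaps KLF3 by 695 bases on the opposite strand, and whether the counting used strand was not given. KLF3-AS1 averaged 0.854 CPM after mitocurcumin and 0.829 CPM after vehicle, far below KLF3. KLF9-DT, which overlaps KLF9 by 468 bases on the opposite strand, was at 0 in every library.

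Since the zinc fingers are alike, reads could in principle be shared between members. Over the 45 pairs of members the median longest identical run between coding sequences was 12 bases, and 4 pairs shared more than 20. Those of 3 of the 4 pairs are shown with the members that hold them, and a run of 24 bases between KLF6 and KLF10 is not shown. They are taken from GENCODE release 29 coding sequences on GRCh38, and capitals mark the bases after an exon junction.
KLF6 and KLF7: gacagGTGTTTTTCCAGGTCTGACCA
KLF3 and KLF6: aaaagctcccacttgaaagcacac
KLF5 and KLF9: gagctgacccgccactaccgga

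The KLF6 and KLF7 run of 26 bases crosses an exon junction at the same base in both genes, and no longer run was found between whole transcripts of any pair. It begins at coding base 796 of 852 in KLF6 (chr10:3779570-3780110, minus strand) and 853 of 909 in KLF7 (chr2:207081244-207088462, minus strand), near the end of each. The KLF3 and KLF6 run of 24 bases starts at coding base 817 of 1038 in KLF3 (chr4:38694867-38694890, plus strand) and 637 of 852 in KLF6 (chr10:3781657-3781680, minus strand). The KLF5 and KLF9 run of 22 bases is at chr13:73075767-73075788 (plus strand) and chr9:70387925-70387946 (minus strand). The files and labels did not state the read length. The table also listed 11 KLF pseudogenes, each at 0 in every library.

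Among the upstream windows matched for the members, 13 windows of 8 members, the GC box was found in 7 members and was not found in KLF9, whose window was 32.4% GC. CACCC, the KLF binding core, was found in KLF5, KLF7, KLF11 and KLF13, and in 54.7% of all windows. CCAAT was found in 5 members (32% of all windows), the E-box in KLF4, KLF6, KLF7 and KLF11, and the MEF2 element in KLF2 and KLF11. TGACGTCA, the cyclic AMP response element, was found in KLF11 (1.65% of all windows), TATAAA in KLF5 (10.7%), and GAANNTTC (5.78%) and the CArG box (1.16%) in KLF7. The antioxidant response element TGACNNNGC (10.9% of all windows), the AP-1 element TGANTCA (6.57%) and TGATGCAA (0.772%) were found in none of the 13 windows, which says only that these letters were not there. All motifs were searched on both strands, and members with several starts had several windows. A member was counted if any of its windows matched, whereas the shares are of single windows. The counts of members are therefore not on the same footing as the shares.

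To compare levels between members, CPM was divided by the length of the longest GENCODE release 29 coding transcript. On this scale KLF6 was highest, with 82.4 ± 5.75 CPM per kb after mitocurcumin and 68.4 ± 1.31 after vehicle (SD, n = 3 each). KLF10 followed, with 36.8 ± 0.417 after mitocurcumin and 42.1 ± 1.79 after vehicle. KLF4 held rank 3 after mitocurcumin, at 24.7 ± 1.78 CPM per kb, and rank 5 after vehicle, at 13.3 ± 0.84. KLF3 had 17.5 ± 0.207 after mitocurcumin and 13.8 ± 0.283 after vehicle, and KLF5 had 15 ± 0.214 after mitocurcumin and 14.6 ± 2.11 after vehicle. On this scale no neighbours in the order overlapped in the mitocurcumin libraries. In the vehicle libraries KLF5 overlapped KLF3, and KLF3 overlapped KLF4, so their order there was not settled by the replicates. Below them came KLF11, KLF9, KLF13 and KLF7 in both groups, between 3.30 and 9.48 CPM per kb after mitocurcumin and between 2.92 and 7.43 after vehicle. KLF2 was lowest, at 0.715 ± 0.129 after mitocurcumin and 1.54 ± 0.206 after vehicle.

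Summed over the 10 members, the level was 213.3, 200 and 203.3 CPM per kb in the mitocurcumin libraries and 174.3, 174.8 and 176.3 in the vehicle libraries. KLF6 made up 40.1% of the sum after mitocurcumin and 39.1% after vehicle. KLF4's share was 12% after mitocurcumin and 7.57% after vehicle, and KLF10's was 17.9% after mitocurcumin and 24.0% after vehicle. These shares and the order of the members depend on the length used. In mitocurcumin libraries KLF6 made up 24.2% with median transcript lengths, where KLF13 ranked highest at 24.3%, and 50.6% with coding lengths. The median length of KLF13, 574 bases, was shorter than its own coding part of 867 bases, which raised its level per kb there. After mitocurcumin KLF13 held rank 8 with the longest transcript and rank 5 with coding lengths. KLF4 held rank 6 after mitocurcumin and rank 8 after vehicle with coding lengths. With median lengths it held rank 3 after mitocurcumin and rank 4 after vehicle.

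**Figure D3:**
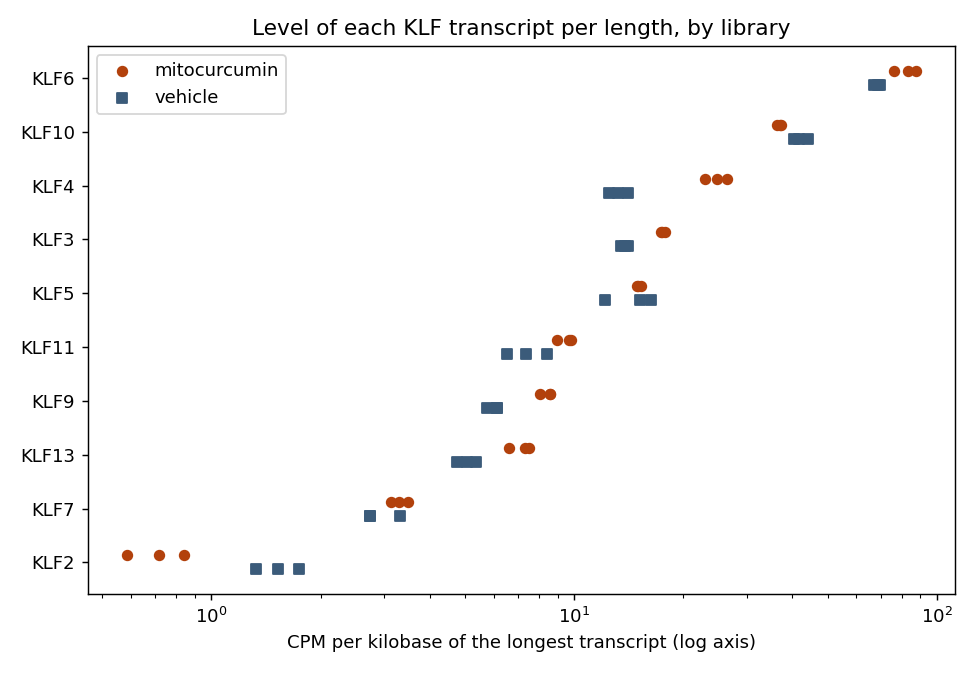
CPM per kb of the longest transcript for each member on a log axis, with a point for each replicate, mitocurcumin above vehicle. KLF6 was highest, at 82.4 after mitocurcumin and 68.4 after vehicle, and KLF2 lowest, at 0.715 after mitocurcumin and 1.54 after vehicle.

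The other members of the KLF and SP families, which share the same type of zinc fingers, were read from the same fit. Of the 11 tested from a list of 16, 2 rose and 0 fell by edgeR, 18.2% called. Of all genes tested 32.5% were called, and 14.7% were called as higher. The median log2 fold change of the 11 was -0.085. At an unadjusted p under 0.05 edgeR had 3 higher and 1 lower, and DESeq2 and both limma fits also called 2 higher and 0 lower. KLF8, which like KLF3 represses through CtBP, had 15.6, 15.8 and 19.0 CPM after mitocurcumin and 9.92, 10.7 and 11.9 CPM after vehicle, a log2 fold change of 0.63 ± 0.12 (SE) with an edgeR adjusted p of 7.13e-04. SP6 rose by 0.75 ± 0.20 (SE), with an edgeR adjusted p of 0.00757, and its call was lost without mitocurcumin replicate 3, at an adjusted p of 0.0657. The difference in share called between these genes and the 10 members was not tested.

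Among 16 cofactors of KLF proteins 2 rose and 5 fell, 43.8% called. This was above the 32.5% of all genes tested and below the 47.7% of those at a mean of at least 20 CPM. Limma on the deposited log2 values called 2 of the cofactors higher and 2 lower. CTBP2 encodes a CtBP protein, the kind of corepressor bound by KLF3 and KLF8. It had 188, 183 and 195 CPM after mitocurcumin and 134, 132 and 147 CPM after vehicle. NCOR1 also rose, by a log2 fold change of 0.35 ± 0.05 (SE). CTBP1, the other CtBP gene of the list, was not called, at a log2 fold change of -0.16 ± 0.10 (SE) and an edgeR adjusted p of 0.226. The acetyltransferase gene KAT2B fell by 0.48 ± 0.07 (SE), and HDAC1, HDAC2 and RCOR1 were among the other cofactor genes that were lower. For ubiquitin ligases and deubiquitinases reported to act on KLF proteins, 6 of the 13 tested rose and 0 fell by edgeR, 46.2% called. In either direction 47.7% of all genes at a mean of at least 20 CPM and 32.5% of all genes tested were called. Called as higher were 20.7% and 14.7% of them. At an unadjusted p under 0.05 edgeR had 7 of the 13 higher and 0 lower. By DESeq2, limma voom or limma on the deposited log2 values, 0 of the 13 were lower. FBXO32 had 175, 153 and 160 CPM after mitocurcumin and 87.8, 88.3 and 92.0 CPM after vehicle, a log2 fold change of 0.87 ± 0.06 (SE). ATXN3 rose by 0.54 ± 0.07 (SE), VHL by 0.50 ± 0.05 (SE) and SIAH1 by 0.49 ± 0.10 (SE), and FBXW7 and ITCH were higher too.

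The kinase route from MEK5 through ERK5 to the MEF2 factors is a known input to KLF2 and KLF4. Of its 12 genes 3 rose and 5 fell, 66.7% called. The share called was 32.5% over all genes tested and 47.7% over those at a mean of at least 20 CPM. Limma on the deposited log2 values called 1 gene of this route higher and 4 lower. MEF2C had 4.61, 6.39 and 5.23 CPM after mitocurcumin and 9.87, 12.3 and 11.4 CPM after vehicle. It fell by 1.05 ± 0.15 (SE) on the log2 scale, with an edgeR adjusted p of 5.28e-05. MAPK7, which encodes ERK5, fell by 0.53 ± 0.12 (SE), and HDAC4, a corepressor of MEF2 proteins, fell by 0.46 ± 0.12 (SE). MEF2D was higher, with 76.8, 71.6 and 77.2 CPM after mitocurcumin and 58.3, 54.2 and 52.1 CPM after vehicle. MAP3K3 and PIEZO1 were lower, and MAP2K5 and MAP3K2 higher. MEF2A, at a mean of 80.5 CPM after mitocurcumin and 85.4 CPM after vehicle, was not called, nor were MEF2B, HDAC5 and HDAC7.

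For the TGF-beta inputs to KLF10 and KLF11, 4 of 11 genes rose and 5 fell, 81.8% called. Over all genes tested 32.5% were called, and 47.7% of those at a mean of at least 20 CPM. Limma on the deposited log2 values called 2 of the TGF-beta genes higher and 5 lower. SMAD7, which encodes an inhibitor of TGF-beta signalling, had 14.1, 14 and 13 CPM after mitocurcumin and 9.87, 7.19 and 8.15 CPM after vehicle. Its log2 fold change was 0.71 ± 0.13 (SE), with an edgeR adjusted p of 5.79e-04. SKIL, another inhibitor of the pathway, rose by 0.58 ± 0.06 (SE). The ligand gene TGFB2 fell by 0.67 ± 0.05 (SE), with 157, 151 and 154 CPM after mitocurcumin and 235, 247 and 254 CPM after vehicle. TGFBR3 fell by 0.61 ± 0.09 (SE). TGFB1, TGFB3 and TGFBR1 were lower, and SMAD2 and SMAD3 higher.

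Of the glucocorticoid receptor and its common targets, 9 tested, 5 rose and 2 fell, 77.8% called. This stood beside 32.5% of all genes tested and 47.7% of those at a mean of at least 20 CPM. TSC22D3, which encodes the glucocorticoid-induced leucine zipper protein, had 21.0, 21.4 and 23.1 CPM after mitocurcumin and 8.98, 6.92 and 5.80 CPM after vehicle. Its log2 fold change was 1.59 ± 0.14 (SE), with an edgeR adjusted p of 1.97e-07. FOXO3, SGK1, NFKBIA and the receptor gene NR3C1 were higher too. FKBP5, a common target of the receptor, fell by 0.71 ± 0.07 (SE), and DUSP1, another, fell by 0.67 ± 0.12 (SE), so genes of this list moved in both directions.

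Among genes reported as KLF targets, 7 of 18 tested rose and 5 fell, 66.7% called, while limma on the deposited log2 values called 5 higher and 5 lower. ATF3, a stress-induced transcription factor gene, had 17.5, 15.9 and 16.7 CPM after mitocurcumin and 3.09, 2.17 and 3.28 CPM after vehicle. Its log2 fold change was 2.56 ± 0.16 (SE). ENG, at 1.98, 1.83 and 1.59 CPM after mitocurcumin and 0.551, 0.503 and 0.341 CPM after vehicle, rose by 1.94 ± 0.35 (SE), and S1PR1 by 1.5 ± 0.23 (SE). CCNE1, which encodes cyclin E1, fell by 0.97 ± 0.11 (SE). CDKN1A, LGALS3, TXNIP and SMAD7 were also higher, and CCND1, CCNB1, MAOB and THBD lower. TXNRD2, a reported target of KLF9, had 5.05, 5.03 and 6.69 CPM after mitocurcumin and 6.70, 4.64 and 4.65 CPM after vehicle, with overlapping groups and an edgeR adjusted p of 0.801. Across the 7 lists 28 of 89 distinct genes tested were higher and 22 were lower, 56.2% called. This stood beside 32.5% of all genes tested and 47.7% of those at a mean of at least 20 CPM. No list was tested, and the lists were chosen with earlier results of these data known, so their shares are no independent result.

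**Figure D4:**
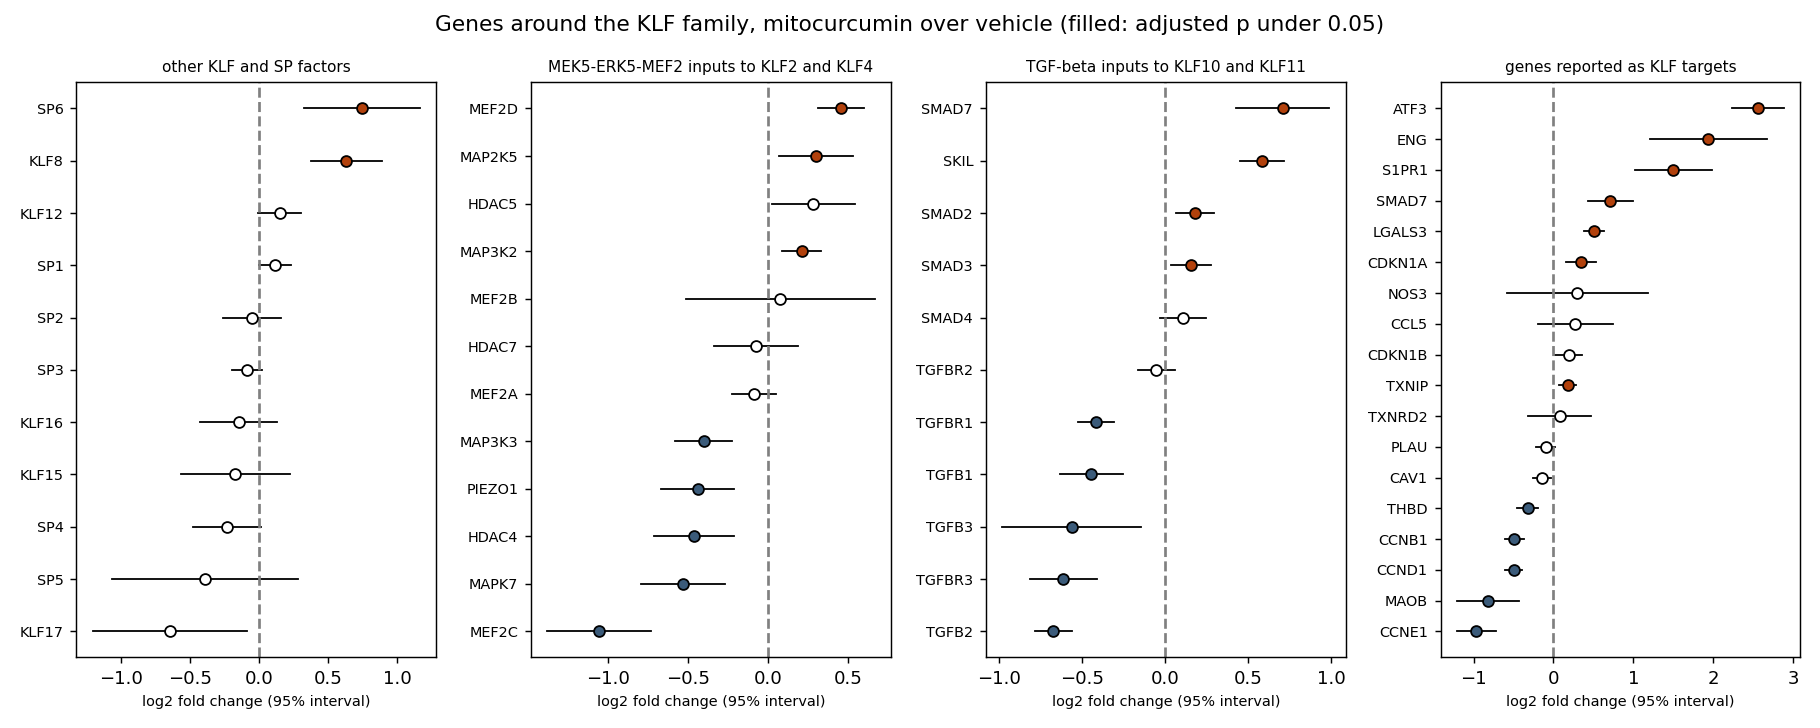
Log2 fold change, mitocurcumin over vehicle, of the tested genes of 4 of the lists, with the 95% interval from edgeR, filled where the adjusted p was under 0.05. ATF3 lay highest at 2.56, followed by ENG at 1.94, and MEF2C lay lowest at -1.05.

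Depth ran from 23146822 to 29104681 counts per library and the labels gave no sequencing batch. The first principal component of log2 CPM, 51.6% of the variance, separated the groups, and vehicle replicate 1 stood apart from the other vehicle libraries on the next one. Of 8 markers of this cell line, VIM averaged 2337 CPM after mitocurcumin and 2163 after vehicle. By edgeR EGFR was higher, FN1 and KRT8 were lower, and VIM, AXL, CAV1, CD44 and KRT18 were not called. Among receptors scarce in triple-negative breast cancer, ESR1 averaged 0.264 CPM after mitocurcumin and 0.230 after vehicle. PGR averaged 0.0924 CPM after mitocurcumin and 0.286 after vehicle. ERBB2, of the same list, stood above both, at 32.7 CPM after mitocurcumin and 41.6 after vehicle, and was called lower. Fibroblast markers summed to 14.4 to 17.5 CPM after mitocurcumin and 20 to 24.6 after vehicle, luminal epithelial markers to 166 to 174 CPM after mitocurcumin and 189 to 222 after vehicle, and blood cell markers to 2.66 to 3.03 CPM after mitocurcumin and 3.37 to 4.79 after vehicle, with HBB at 0. KRT19 made up most of the luminal sum, at 138 CPM after mitocurcumin and 163 after vehicle, and was called lower. GATA3 was also called lower, CDH1 and EPCAM were not called, and FOXA1 was too scarce to be tested. The part of these markers in the KLF values was not tested.

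**Figure D5:**
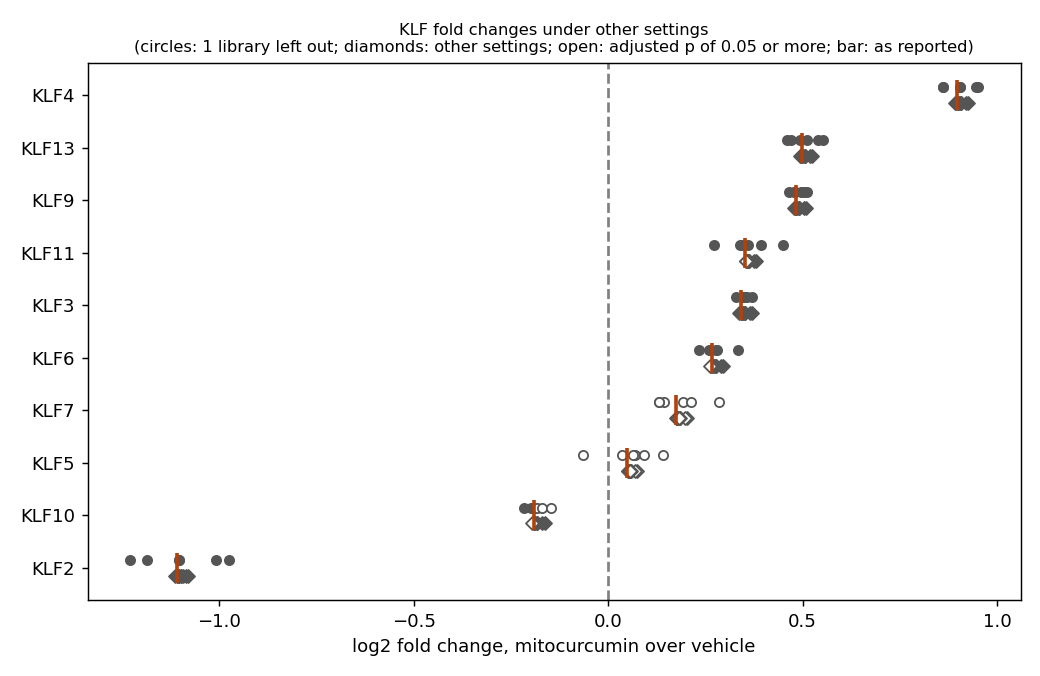
Log2 fold change of each member under the reported setting (bar) and each of the 17 alternatives, with circles where 1 library was left out, diamonds for other settings and open symbols where the adjusted p was 0.05 or more. KLF5 was the 1 member whose sign turned, at -0.06 without vehicle replicate 1, and KLF2 stayed between -1.23 and -0.97.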

How the data were processed

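RNA was captured by poly(A) and made into stranded libraries, per the labels' protocols. The submitters' processing notes name GRCh38 as the build, and per the file headers the genes were those of RefSeq. No aligner, counting tool or use of strand is stated in the labels or headers. Values in the deposited raw table are estimated counts, as their fractions show, and those in the deposited normalized table are on a log2 scale, with 1 scaling factor for each library. After rounding, the estimated counts were fitted with edgeR 4.0.16 under R 4.3.3 (robust quasi-likelihood F-test, TMM scaling, filterByExpr with a minimum count of 10 and total of 15, group as the only term), p-values two-sided. The SE is the coefficient divided by the square root of F, and CPM used TMM-scaled totals of the genes kept. The fit was tried on simulated data before use. Alternatives were other scalings and filters, DESeq2 1.42.0, limma 3.58.1 (voom, and the deposited log2 values), unrounded counts, a replicate block, a threshold of 0.01 and each library left out in turn. All 10 members were named, and of each list up to 4 called genes at a mean CPM of at least 1 with the largest change, plus TXNRD2 and SMAD7; others are named to spell out counts. Not every list gene is reported here by name. The members and lists were chosen with earlier results of these data known. Transcript lengths came from GENCODE release 29 and promoter windows, matched for 8 of the 10 members, from RefSeq. Columns were matched by treatment word and replicate number, although the sample number heading mitocurcumin replicate 2 was out of line with the others.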

Additional observations from a re-analysis of the deposited data

How the results depend on the processing

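Of 629 results for 37 named genes under 17 alternatives, 618 kept their direction and their side of the threshold, 8 lost the call and 3 changed sign. With limma on the deposited log2 values 4 members were higher and 1 lower, since KLF6, KLF10 and KLF11 missed the threshold, and at an adjusted p under 0.01 1 was lower. With 1 library left out, 6 members were higher each time and 1 to 2 lower, and over all genes 1850 to 2872 were higher and 2165 to 3216 lower. The related lists had 22 to 32 genes higher and 19 to 23 lower. With 1 library left out, KLF5 ran from -0.063 (without vehicle replicate 1) to 0.14, and TXNRD2 from -0.078 (without mitocurcumin replicate 3) to 0.27, with -0.0094 without vehicle replicate 2. The KLF6 share in mitocurcumin libraries was 24.2% with median and 50.6% with coding lengths, against 40.1%. Deviations of same-numbered libraries from their group means correlated at 0.101, 0.017 and -0.0101. With 3 libraries in a group, these values cannot show whether same-numbered libraries shared a culture or day. With the replicate block 6 members were higher and 2 lower, and 2643 genes were higher and 3163 lower. The causes were not tested. KLF2, with 34 to 83 counts a library, is the member depth limits most.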
